A study of Mus musculus with 6 samples.

Results

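The 9 genes described here encode receptors for noradrenaline, adrenaline and acetylcholine in the heart and the proteins that act directly behind them. They are the receptors Adrb1, Adra1a, Adra1b and Chrm2, the G protein alpha subunits Gnas and Gnai2, the adenylyl cyclases Adcy5 and Adcy6, and the receptor kinase Grk2. They were taken by gene symbol, with earlier results of these data known, and each symbol matched 1 of the 26835 genes in the table. Messenger RNA was sequenced from hearts of wild-type mice of the strain C57BL/6, which were 7 to 8 weeks old and weighed around 20 g. Control mice received 10% DMSO by intraperitoneal injection, mice of the CFZ group received carfilzomib at 8 mg/kg by the same route, and mice of the CFZ_EA group received carfilzomib at 8 mg/kg and electroacupuncture at the acupoint PC6. Carfilzomib is an irreversible proteasome inhibitor used against multiple myeloma, and electroacupuncture passes a weak current through acupuncture needles. Each group had 2 libraries, and days 0, 2, 4 and 6 are listed for all of them without being tied to an injection, a session or the removal of the heart. The labels give no untreated group, no group with electroacupuncture alone, and no word on which chambers were sampled or whether replicates came from separate mice. The p-values therefore measure only the spread between these libraries, which may be technical.

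Sympathetic nerves release noradrenaline, which acts on the beta-1 receptor, and this receptor activates the stimulatory G protein and adenylyl cyclase, so that cyclic AMP rises and the heart beats faster and harder. Acetylcholine from the vagus nerve acts on the M2 receptor, which engages inhibitory G proteins that restrain adenylyl cyclase and open a potassium channel in atrial and pacemaker cells. Alpha-1 receptors instead use G proteins of the Gq class and phospholipase C, and receptor kinases with arrestins switch active receptors off.

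Estimated counts totalled 50013990 to 75742448 per library, and mitochondrial genes took 14.8% to 21.3% of them. Control replicate 2 stood apart from the other libraries. On the first principal component, which held 37.1% of the variance, it lay at 48.0 while the other 5 libraries lay between -22.0 and 0.326. It had the highest summed level of 8 fibroblast markers, at 1036 FPKM against 127 to 203 FPKM in the other 5 libraries. The largest parts of that sum were the collagen genes Col3a1 and Col1a1, at 349 and 287 FPKM against at most 31.5 and 22.1 FPKM elsewhere. Pdgfra and Tcf21 were also highest there but by far less, at 3.78 and 5.34 FPKM against at most 2.48 and 4.89 FPKM. All 8 cardiomyocyte markers exceeded 1 FPKM in every library, and their sum ran from 18399 to 21747 FPKM, with CFZ replicate 2 highest and control replicate 2 lowest. Markers of the sinoatrial node summed to 3.68 to 6.20 FPKM. FPKM counts sequenced fragments per length of transcript and per size of library, a level that can be set side by side between genes. In heart tissue, fewer cells of a type and less RNA per cell cannot be told apart.

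Sequence before the start site is shown for Adrb1 and Chrm2, the main cardiac receptors of the sympathetic and the vagal arm, because cyclic AMP acts on genes through the cAMP response element, TGACGTCA, and its half-site, TGACG. The RefSeq promoter table for GRCm38.p6 held 9 start sites of 5 members (Adrb1, Adra1b, Chrm2, Adcy5 and Gnas). The 250 bases before each start were searched on both strands (TGACG or CGTCA, and TGACGTCA, which contains the half-site). Capitals mark a half-site. The Adrb1 window is chr19:56721867-56722116 and the Chrm2 window is chr6:36387834-36388083, both on the plus strand and written 5′ to 3′.
Adrb1: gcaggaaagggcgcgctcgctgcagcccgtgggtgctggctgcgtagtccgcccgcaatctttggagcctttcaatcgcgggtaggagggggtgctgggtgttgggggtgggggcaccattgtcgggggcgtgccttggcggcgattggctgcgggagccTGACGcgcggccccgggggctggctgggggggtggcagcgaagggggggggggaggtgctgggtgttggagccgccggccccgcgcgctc
Chrm2: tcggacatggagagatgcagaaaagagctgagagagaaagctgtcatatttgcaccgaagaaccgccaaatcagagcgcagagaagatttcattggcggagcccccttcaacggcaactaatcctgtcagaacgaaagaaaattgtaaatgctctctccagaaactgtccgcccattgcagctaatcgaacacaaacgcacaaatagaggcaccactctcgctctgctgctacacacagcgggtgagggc
The Adrb1 window held 1 half-site, which began 90 bases before the RefSeq start, and the start of the deposited gene model lies 82 bases beyond the RefSeq start. The Chrm2 window held no half-site. Half-sites were found in 4 of the 9 member windows, 3 of them before starts of Gnas, of which 2 overlap and share the same site, so that 3 distinct sites were found. Half-sites occurred in 17.8% of all 32851 windows of this length. No member window held the full element, which 1.55% of all windows held. The 2 windows also differed in base composition, with 74.0% G and C before Adrb1 and 50.0% before Chrm2. A match describes these letters only, and no promoter activity was measured.

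**Figure D1:**
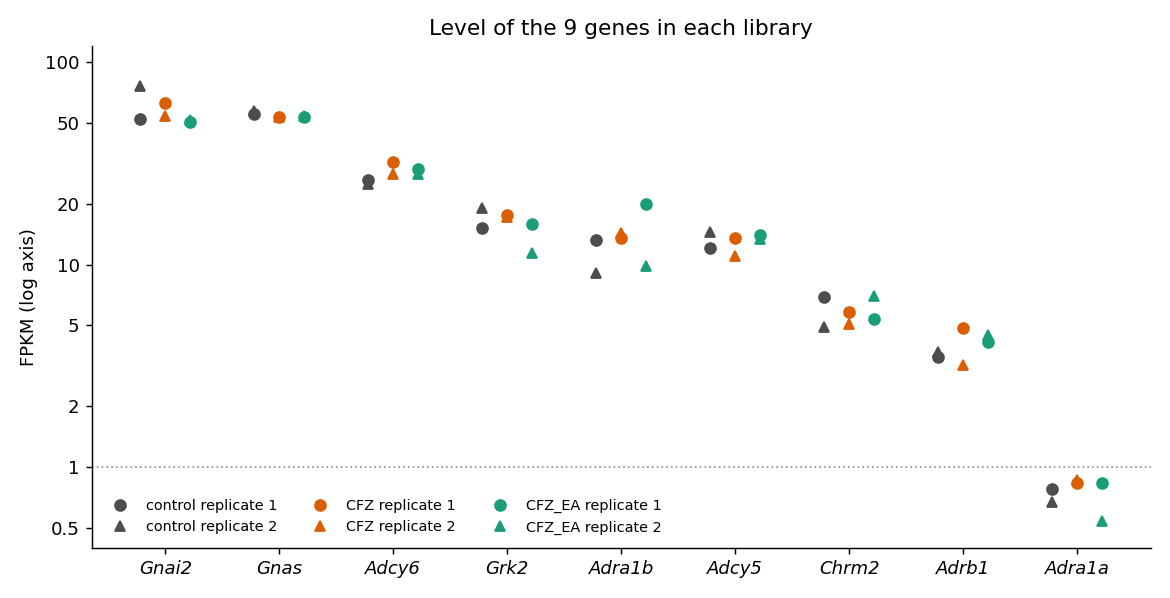
FPKM (log axis) of the 9 genes in each of the 6 libraries, ordered by mean level, with circles for replicate 1 and triangles for replicate 2. The dotted line is the filter of 1 FPKM, and Adra1a lies below it in all 6 libraries, between 0.542 and 0.862 FPKM.

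Transcript levels of the 9 genes spanned a wide range, and only part of their order was the same in all libraries, with 5 distinct orders. Gnai2 had the highest mean level (58.0 FPKM over the 6 libraries), followed by Gnas (54.6 FPKM), Adcy6 (28.2 FPKM), Grk2 (16.1 FPKM), Adra1b (13.3 FPKM), Adcy5 (13.1 FPKM), Chrm2 (5.86 FPKM), Adrb1 (3.98 FPKM) and Adra1a (0.755 FPKM). Gnai2 and Gnas did not differ beyond their spread, since Gnas was the higher in 3 libraries and Gnai2 in the other 3, and their ratio (Gnas over Gnai2) ran from 0.748 to 1.06. Adcy6 lay below both and above the next gene in all 6 libraries. Grk2, Adra1b and Adcy5 overlapped and exchanged places. Chrm2, Adrb1 and Adra1a kept the last 3 places, in that order, in every library. Among the 10329 genes tested, 93.6% had a lower mean level than Gnai2, 57.3% a lower one than Chrm2 and 44.9% a lower one than Adrb1.

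Of the 9 genes, 8 passed the filter of a mean FPKM of 1, and none of the 8 was called in any of the 3 comparisons by edgeR's quasi-likelihood test at a Benjamini-Hochberg adjusted p under 0.05. The shares of all genes called were 0.029% for CFZ against control (3 genes), 0.0194% for CFZ_EA against CFZ (2 genes) and 0.0% for CFZ_EA against control (0 genes). Without control replicate 1, 338 genes (3.27%) were called for CFZ against control and 238 (2.3%) for CFZ_EA against control, and no member was among them. At an unadjusted p under 0.05, edgeR also counted 0 of the 8 in each comparison, where 7.72%, 3.09% and 5.13% of all genes tested passed. DESeq2 and limma called no member either, where DESeq2 called 1.34%, 0.532% and 0.494% of all genes in the 3 comparisons. For CFZ against control limma called only 2 of the 10329 genes tested. Under limma 0 of the 8 had an unadjusted p under 0.05, beside 6.09%, 2.73% and 4.01% of all genes. In DESeq2 only Adcy6 for CFZ against control had an unadjusted p under 0.05 (unadjusted p = 0.0359, adjusted p = 0.423), beside 10.2% of all genes, and in the other 2 comparisons no member did, beside 4.1% and 7.41%. Adcy6 in the same comparison also had an unadjusted p under 0.05 in edgeR without a filter (unadjusted p = 0.0470) and with filterByExpr (unadjusted p = 0.0459). Without a filter, 350 of 26835 genes were higher and 1285 lower at that threshold. With filterByExpr, 341 of 18273 were higher and 1134 lower. Some fits with libraries left out also gave members an unadjusted p under 0.05. Those fits leave 1 library in a group, and their p-values are not listed here. Over all alternatives that were run, the smallest adjusted p of any member was 0.173, for CFZ_EA against control without control replicate 1. The intervals below give the sizes of change that these libraries leave possible, and a p above the threshold does not show equal levels. CFZ is compared with control and CFZ_EA with CFZ, so the CFZ libraries enter both, and the control libraries likewise enter 2 comparisons.

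The medians of the 8 members' log2 fold changes were 0.03 for CFZ against control, 0.05 for CFZ_EA against CFZ and 0.12 for CFZ_EA against control, beside medians of all genes tested of -0.0034, -0.0084 and -0.0013. Groups were taken not to overlap where both libraries of one group lay above both of the other in FPKM and in TMM-scaled counts (CPM), 2 scalings that order libraries differently. For CFZ against control this held for 1 of the 8 members (Adcy6), beside 27.6% of all genes tested. In the comparison of CFZ_EA with CFZ it held for 2 of the 8 (Gnai2 and Grk2), beside 27.1%. For CFZ_EA against control it held for 2 of the 8 (Adrb1 and Adcy6), beside 27.2%. None of the 3 counts was above the share of all genes.

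**Figure D2:**
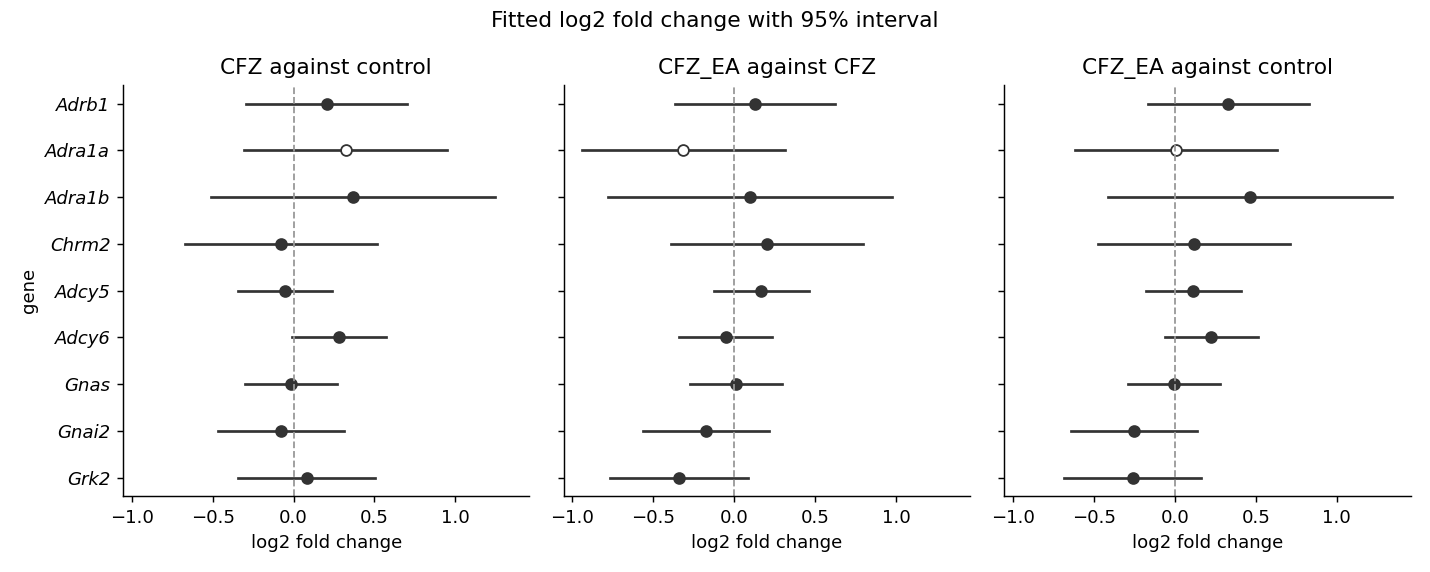
Fitted log2 fold changes (horizontal axis, points) with 95% intervals (lines) of the 9 genes in the 3 comparisons, from edgeR. Every interval includes 0, the one of Adcy6 for CFZ against control only just, from -0.0097 to 0.57. The open point is Adra1a, which did not pass the filter and comes from the fit without it.

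Adrb1 (ENSMUSG00000035283, chromosome 19, 56722199 to 56733113, plus strand, GRCm38) encodes the beta-1 adrenergic receptor, the main beta receptor of cardiomyocytes. It measured 3.49 and 3.70 FPKM in the control libraries, 4.85 and 3.17 FPKM in the CFZ libraries, and 4.16 and 4.49 FPKM in the CFZ_EA libraries. CFZ replicate 1 was the highest and CFZ replicate 2 the lowest of the 6, so CFZ overlapped both other groups, while both CFZ_EA libraries lay above both control libraries. Mean levels with their SD were 3.59 ± 0.153 FPKM for control, 4.01 ± 1.18 FPKM for CFZ and 4.32 ± 0.234 FPKM for CFZ_EA (n = 2 each). Relative to control, the fitted fold was 1.15 in CFZ (95% interval 0.816 to 1.63) and 1.26 in CFZ_EA (0.892 to 1.78; adjusted p = 0.852, edgeR). The log2 fold change of CFZ against control was 0.20 ± 0.20 (SE) and became -0.07 without CFZ replicate 1. For CFZ_EA against CFZ it was 0.13 ± 0.20 and became -0.10 without CFZ replicate 2. The direction of both comparisons that involve CFZ therefore rested on 1 library.

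The alpha-1 receptors differed from each other far more than they differed between groups. Adra1b (ENSMUSG00000050541, chromosome 11, 43774606 to 43901210, minus strand) measured 13.2 and 9.05 FPKM in the control libraries, 13.6 and 14.3 FPKM in the CFZ libraries, and 19.9 and 9.87 FPKM in the CFZ_EA libraries. Its highest library, CFZ_EA replicate 1, belonged to the same group as its second lowest, and the 2 CFZ libraries lay close together. Adra1a (ENSMUSG00000045875, chromosome 14, 66635251 to 66771168, plus strand) measured 0.781 and 0.672 FPKM in the control libraries, 0.838 and 0.862 FPKM in the CFZ libraries, and 0.836 and 0.542 FPKM in the CFZ_EA libraries. Both CFZ libraries were above both control libraries, and CFZ_EA replicate 2 was the lowest. Within each library Adra1b was 13.5 to 23.8 times the level of Adra1a, highest in CFZ_EA replicate 1 and lowest in control replicate 2.

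Adra1b had the widest spread of the 9 genes. Its highest CPM was 2.39 times its lowest, and 88.1% of the genes tested had a smaller range. Relative to control, its fitted fold was 1.29 in CFZ (95% interval 0.701 to 2.37) and 1.38 in CFZ_EA (0.750 to 2.54; adjusted p = 0.876, edgeR). CFZ_EA against CFZ gave a fold of 1.07 (0.582 to 1.96). The log2 fold change of CFZ against control, 0.37, became 0.06 when control replicate 2 was left out and 0.75 when control replicate 1 was. The CFZ_EA values rested on replicate 1 of that group. Without it, the log2 fold change against CFZ went from 0.10 to -0.47 and that against control from 0.46 to -0.10. In the fit without a filter, Adra1a had folds of 1.25 (0.809 to 1.93) for CFZ against control and 0.804 (0.521 to 1.24) for CFZ_EA against CFZ.

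Chrm2 (ENSMUSG00000045613, chromosome 6, 36388084 to 36528414, plus strand) encodes the M2 muscarinic receptor, which in the heart is known to be denser in the atria than in the ventricles. It measured 6.94 and 4.90 FPKM in the control libraries, 5.84 and 5.07 FPKM in the CFZ libraries, and 5.40 and 7.00 FPKM in the CFZ_EA libraries. The highest libraries were CFZ_EA replicate 2 and control replicate 1, from different groups, and all 3 groups overlapped. The fitted folds were 0.947 for CFZ against control (95% interval 0.627 to 1.43; adjusted p = 0.947, edgeR), 1.15 for CFZ_EA against CFZ (0.761 to 1.73) and 1.09 for CFZ_EA against control (0.721 to 1.64). The direction of each turned when 1 library was left out. The log2 fold change of CFZ against control went from -0.08 to 0.28 without control replicate 1. That of CFZ_EA against CFZ went from 0.20 to -0.02 without CFZ_EA replicate 2. That of CFZ_EA against control went from 0.12 to -0.16 without control replicate 2 and to -0.10 without CFZ_EA replicate 2. The long non-coding RNA gene 9330158H04Rik overlaps the start of the Chrm2 gene on the opposite strand and measured 1.64 to 2.07 FPKM, and reads of the overlap could not be told apart unless strand was used in counting.

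The 2 libraries with the most Chrm2 were also the 2 with the most atrial marker RNA, but the order did not hold below them. The sum of 10 atrial markers, all of them in the table, was 2882 and 1637 FPKM in the control libraries, 349 and 214 FPKM in the CFZ libraries, and 987 and 5774 FPKM in the CFZ_EA libraries. Bmp10, a growth factor restricted to the adult atria, stood at 22.6 FPKM for control replicate 1 and at 55.7 FPKM for CFZ_EA replicate 2, and was at or below 0.167 FPKM in the other 4 libraries. No atrial marker was at 0 in all libraries. Control replicate 2 had the third most atrial marker RNA and the lowest Chrm2, and CFZ replicate 1 had the third highest Chrm2 with little atrial marker RNA. Atrial marker RNA was lowest in both CFZ libraries, and its part in the Chrm2 values was not tested. Of the 2 subunits of the channel that M2 receptors open, Kcnj3 was highest in CFZ_EA replicate 2, at 2.30 FPKM against 0.739 to 1.08 FPKM elsewhere. Kcnj5 was instead highest in replicate 1 of every group, at 18.7 to 19.5 FPKM against 8.97 to 12.9 FPKM in replicate 2. For CFZ_EA against control the log2 fold change of Kcnj3 was 1.10 ± 0.48 (adjusted p = 0.848, edgeR).

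**Figure D3:**
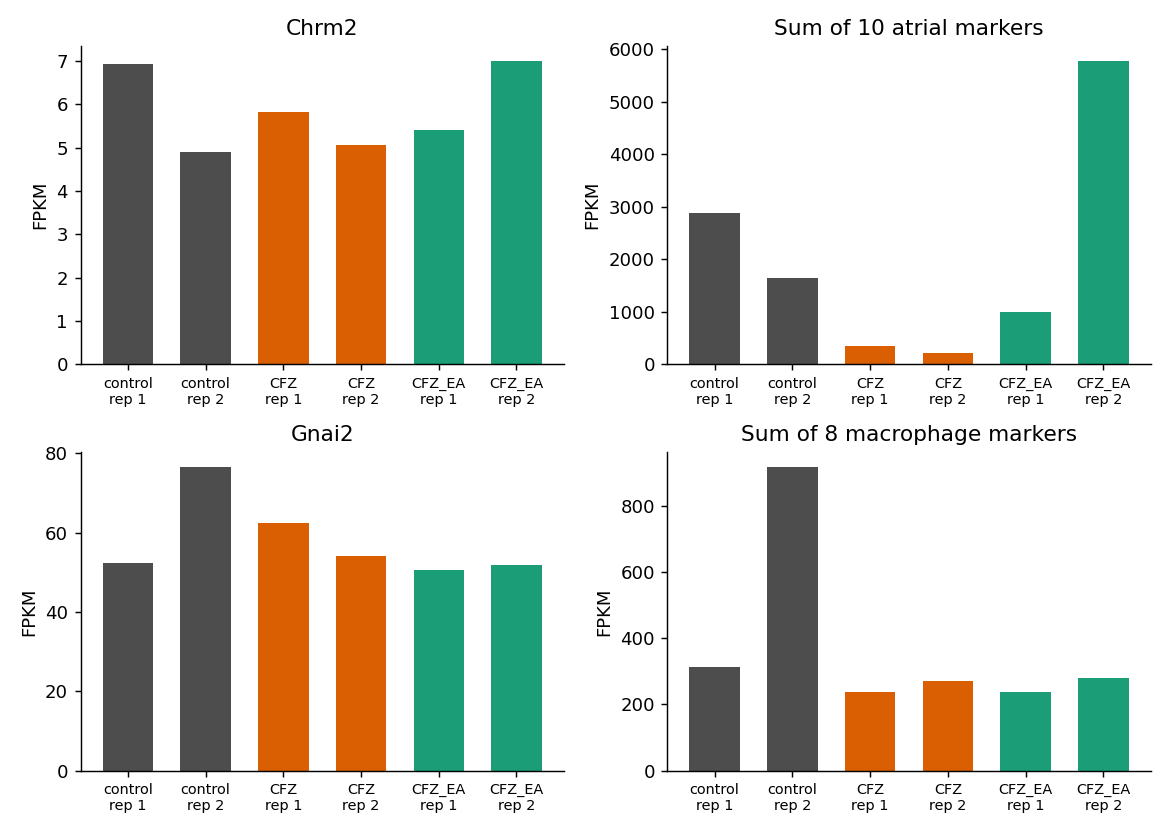
FPKM in each library of Chrm2 and of the sum of 10 atrial markers (upper row), and of Gnai2 and of the sum of 8 macrophage markers (lower row), with bars from 0, 1 bar per library and no error bars. CFZ_EA replicate 2 and control replicate 1 lead both upper panels, and control replicate 2 leads both lower panels, with 76.5 FPKM of Gnai2 and 916 FPKM of macrophage markers.

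Gnas (ENSMUSG00000027523, chromosome 2, 174284320 to 174346744, plus strand) encodes the stimulatory alpha subunit that couples beta receptors to adenylyl cyclase, and its imprinted locus has several alternative first exons. It measured 55.5 and 57.2 FPKM in the control libraries, 53.8 and 53.6 FPKM in the CFZ libraries, and 53.6 and 53.8 FPKM in the CFZ_EA libraries. In FPKM both control libraries lay just above the other 4, but in TMM-scaled CPM the groups overlapped. Gnas was the steadiest of the 9 genes. Its highest CPM was 1.07 times its lowest, and 0.426% of the genes tested had a smaller range. The fitted folds were 0.990 for CFZ against control (95% interval 0.812 to 1.21), 1.01 for CFZ_EA against CFZ (0.826 to 1.23) and 0.997 for CFZ_EA against control (0.818 to 1.21). Their log2 values of -0.015, 0.010 and -0.0044 changed sign with the library left out: without control replicate 1 CFZ against control gave 0.03 and CFZ_EA against control 0.05, without CFZ replicate 1 CFZ against control gave 0.03 and CFZ_EA against CFZ -0.04, without CFZ_EA replicate 1 CFZ_EA against control gave 0.02, and without CFZ_EA replicate 2 CFZ_EA against CFZ gave -0.0072. They also changed sign under other filters on low values, which gave 0.03, -0.01 and 0.02, and for CFZ_EA against control under RLE scaling, which gave 0.0013. The table summed 11 Gnas transcripts, so shifts between them were not analysed here.

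Gnai2 (ENSMUSG00000032562, chromosome 9, 107614125 to 107635367, minus strand) encodes an inhibitory alpha subunit through which M2 receptors act, and it is also abundant in leukocytes. It measured 52.4 and 76.5 FPKM in the control libraries, 62.4 and 54.2 FPKM in the CFZ libraries, and 50.6 and 52.0 FPKM in the CFZ_EA libraries. Control replicate 2 was far above the rest, and both CFZ_EA libraries lay below both CFZ libraries. The sum of 8 macrophage markers was also highest in control replicate 2, at 916 FPKM against 237 to 313 FPKM in the other 5 libraries. All 8 of these markers exceeded 1 FPKM in every library, and their part in the Gnai2 values was not tested. The 8 endothelial markers, each above 1 FPKM in every library, summed to 271 and 302 FPKM in CFZ against 224 and 230 FPKM in CFZ_EA. Of these, Cdh5, Kdr, Tie1, Emcn and Fabp4 were lower in both CFZ_EA libraries than in both CFZ libraries, as Gnai2 was. Pecam1, Tek and Vwf overlapped between these groups. Fabp4 alone measured 113 and 156 FPKM in CFZ against 91.1 and 86.7 FPKM in CFZ_EA. The part of endothelial RNA in the Gnai2 values was not tested either. The fitted folds were 0.946 for CFZ against control (95% interval 0.722 to 1.24), 0.887 for CFZ_EA against CFZ (0.677 to 1.16) and 0.839 for CFZ_EA against control (0.641 to 1.10; adjusted p = 0.852, edgeR). Without control replicate 2 the log2 fold change of CFZ against control turned from -0.08 to 0.14, and that of CFZ_EA against control went from -0.25 to -0.03.

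Adcy5 and Adcy6 encode the 2 adenylyl cyclases that predominate in cardiomyocytes, both of which inhibitory G proteins restrain. Adcy6 (ENSMUSG00000022994, chromosome 15, 98589973 to 98610076, minus strand) measured 26.3 and 25.1 FPKM in the control libraries, 32.1 and 28.1 FPKM in the CFZ libraries, and 29.5 and 28.0 FPKM in the CFZ_EA libraries. All 4 libraries of carfilzomib-treated mice lay above both control libraries. In the same 4 libraries the 5 erythroid markers, all in the table, summed to less (2466 to 3470 FPKM against 4962 and 5666 FPKM in control) and the 8 cardiomyocyte markers to more (19522 to 21747 FPKM against 19151 and 18399 FPKM), and their part in the Adcy6 values was not tested. Taken singly, the cardiomyocyte markers Tnnt2, Actn2, Ryr2 and Ttn overlapped between CFZ and control in FPKM. Actn2, Ryr2, Actc1 and Ttn overlapped between CFZ_EA and control. Mean levels of Adcy6 with their SD were 25.7 ± 0.852 FPKM for control, 30.1 ± 2.88 FPKM for CFZ and 28.8 ± 1.09 FPKM for CFZ_EA (n = 2 each). For CFZ against control the fitted fold was 1.21 (95% interval 0.993 to 1.48), with an unadjusted p of 0.0559 and an adjusted p of 0.649 in edgeR, the smallest unadjusted p of any member. For CFZ_EA against control the fold was 1.17 (0.958 to 1.43; adjusted p = 0.848, edgeR), and for CFZ_EA against CFZ it was 0.964 (0.789 to 1.18). Without control replicate 2, its lowest library, the log2 fold change of CFZ against control went from 0.28 to 0.18 and that of CFZ_EA against control from 0.23 to 0.13.

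Adcy5 (ENSMUSG00000022840, chromosome 16, 35154877 to 35305738, plus strand) measured 12.01 and 14.5 FPKM in the control libraries, 13.5 and 11.1 FPKM in the CFZ libraries, and 14.0 and 13.3 FPKM in the CFZ_EA libraries. Control replicate 2 was the highest and CFZ replicate 2 the lowest, and all groups overlapped in FPKM. In TMM-scaled CPM both CFZ_EA libraries lay above the other 4. The fitted fold was 0.965 for CFZ against control (95% interval 0.787 to 1.18), and its log2 value turned from -0.05 to 0.01 without control replicate 2 and to 0.04 without CFZ replicate 2. CFZ_EA against CFZ gave 1.12 (0.917 to 1.38; adjusted p = 0.9997, edgeR), and CFZ_EA against control gave 1.08 (0.884 to 1.33). Adcy6 exceeded Adcy5 in every library, by 1.73 times in control replicate 2 and by up to 2.54 times in CFZ replicate 2.

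Grk2 (ENSMUSG00000024858, chromosome 19, 4286001 to 4306030, minus strand) encodes the kinase that phosphorylates active beta receptors and so begins their uncoupling. It measured 15.2 and 19.1 FPKM in the control libraries, 17.5 and 17.2 FPKM in the CFZ libraries, and 15.9 and 11.4 FPKM in the CFZ_EA libraries. CFZ_EA replicate 2 was the lowest of the 6, and both CFZ_EA libraries lay below both CFZ libraries but overlapped control. Mean levels with their SD were 17.1 ± 2.73 FPKM for control, 17.4 ± 0.182 FPKM for CFZ and 13.7 ± 3.21 FPKM for CFZ_EA (n = 2 each). For CFZ_EA against CFZ the fitted fold was 0.789 (95% interval 0.588 to 1.06; unadjusted p = 0.0970 and adjusted p = 0.9997, edgeR). Its log2 value of -0.34 became -0.13 without CFZ_EA replicate 2, the library with the most atrial marker RNA, and -0.57 without CFZ_EA replicate 1. Among the endothelial markers, Cdh5, Kdr, Tie1, Emcn and Fabp4 were also lower in both CFZ_EA libraries than in both CFZ libraries. Pecam1, Tek and Vwf overlapped between these groups. The part of atrial and of endothelial RNA in the Grk2 values was not tested. CFZ against control gave a log2 fold change of 0.08, which became -0.0091 without control replicate 1.

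The 9 genes did not vary together over the 6 libraries. Of the 36 pairs of members, Pearson's r of log2 CPM was over 0.5 in 6 and under -0.5 in 7, with the 3 groups and the depth of each library shared by all genes. The highest was between Adra1a and Adra1b (r = 0.814), and the lowest was between Chrm2 and Grk2 (r = -0.777). Pairs of other genes were not counted, so these counts of pairs cannot be read as particular to the members. Fbxo21 (r = 0.998) and Napa (r = 0.995) were the genes most like Adra1b over the 6 libraries. Those most like Gnai2 were Cd47 (r = 0.997) and Cdca4 (r = 0.996), and those most like Adcy6 were Ap4b1 (r = 0.995) and Snrnp27 (r = 0.994). Genes most like the other members were Klhl3 for Adrb1, Lpcat3 and Tbcb for Adra1a, Rbl2 and Lmod2 for Chrm2, Nav2 for Adcy5, Rpl10-ps3 and Calr3 for Gnas, and Uimc1 and Tmem179b for Grk2, with r from 0.967 to 0.987. With 6 libraries such values are common, since 14 to 91 genes had an r over 0.95 with each member.

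**Figure D4:**
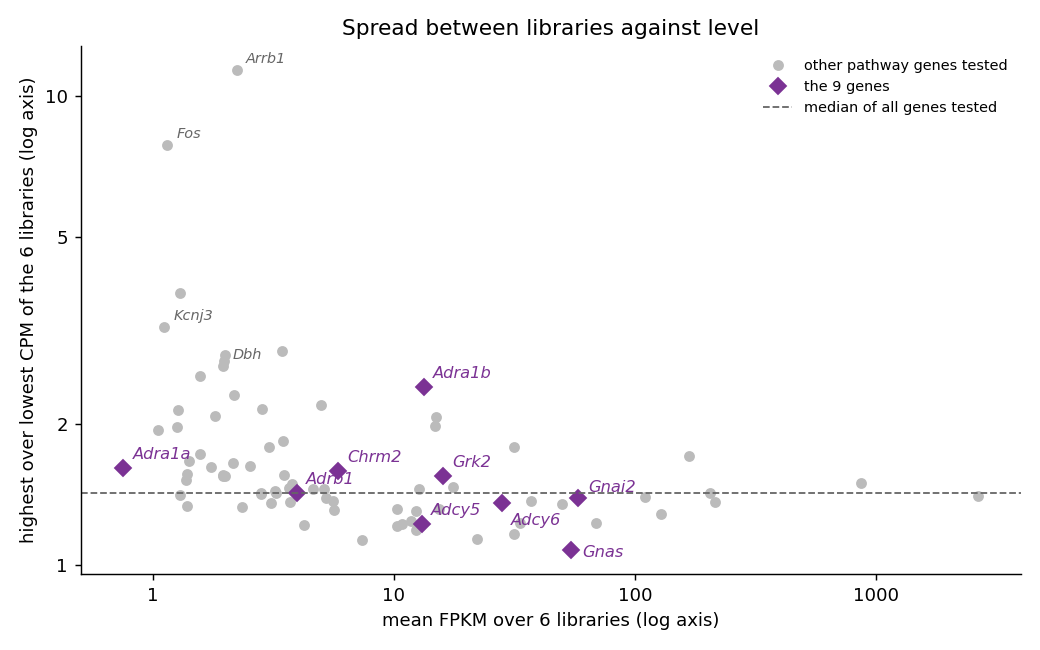
Highest over lowest TMM-scaled CPM of the 6 libraries (vertical log axis) against mean FPKM (horizontal log axis) for the 9 genes (diamonds) and the other tested pathway genes (grey circles). The dashed line is the median of all genes tested, 1.42. Gnas lies lowest, at 1.07, and Adra1b is the highest diamond, at 2.39.

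The wider pathway was read from 11 lists with 110 genes besides the 9, of which 107 were in the table and 72 passed the filter. By edgeR none of the 72 was called in any comparison. At an unadjusted p under 0.05, 7 of the 72 (9.72%) passed for CFZ against control, 4 higher and 3 lower, beside 7.72% of all genes tested. In CFZ_EA against CFZ, 4 (5.56%) passed, beside 3.09%, and for CFZ_EA against control 2 (2.78%) passed, beside 5.13%. The median log2 fold changes of the 72 were 0.04, 0.09 and 0.08. DESeq2 called Grk3 and Tnni3 for CFZ against control (beside 1.34% of all genes) and Grk3 for CFZ_EA against CFZ (beside 0.532%). At an unadjusted p under 0.05 it counted 8 (11.1%), 6 (8.33%) and 9 (12.5%) of the 72, beside 10.2%, 4.1% and 7.41% of all genes, and the 9 for CFZ_EA against control were all higher. For that comparison DESeq2 thus gave a larger share than for all genes where edgeR gave a smaller one. Limma called none, with 3, 3 and 0 genes at an unadjusted p under 0.05, beside 6.09%, 2.73% and 4.01% of all genes. For CFZ against control it called only 2 of the 10329 genes tested. Without control replicate 1, edgeR called Adcy7 for CFZ against control, in the setting where 3.27% of all genes were called.

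Grk3, the closest relative of Grk2 among the receptor kinases, had the smallest unadjusted p of the kinase, arrestin and RGS list in both comparisons that involve CFZ. It measured 1.95 and 1.91 FPKM in the control libraries, 1.31 and 1.25 FPKM in the CFZ libraries, and 2.01 and 2.01 FPKM in the CFZ_EA libraries. Both CFZ libraries lay below the other 4, and control and CFZ_EA lay close together. The log2 fold change was -0.54 ± 0.14 (SE) for CFZ against control (unadjusted p = 0.00823 and adjusted p = 0.608 in edgeR, adjusted p = 0.0495 in DESeq2). For CFZ_EA against CFZ it was 0.66 ± 0.14 (unadjusted p = 0.00313 and adjusted p = 0.9997 in edgeR, adjusted p = 0.00681 in DESeq2). Both values use the same CFZ libraries. Grk3 and Grk2 were not ordered alike, as Grk2 was lowest in CFZ_EA and Grk3 in CFZ. Rgs4, which speeds the switching off of inhibitory and Gq proteins, gave 0.37 ± 0.14 and -0.45 ± 0.14 on the same comparisons (adjusted p = 0.621 and 0.9997, edgeR).

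Among the other receptors, 2 of the 9 in the table passed the filter. Adra1d, a remaining alpha-1 receptor, ran from 1.65 to 2.85 FPKM. Each of the 7 below the filter stayed at or below 0.304 FPKM in every library, and Chrm5 was not analysed here. Of the other G protein subunits, 9 of 12 were tested. Gnaq, which couples alpha-1 receptors to phospholipase C, measured 1.59 and 1.95 FPKM in the control libraries, 1.35 and 1.07 FPKM in the CFZ libraries, and 1.60 and 1.88 FPKM in the CFZ_EA libraries. Both CFZ libraries were the lowest, with log2 fold changes of -0.49 ± 0.19 against control and 0.54 ± 0.19 for CFZ_EA against CFZ (adjusted p = 0.621 and 0.9997, edgeR). Gnao1, another inhibitory-class subunit, gave 0.84 ± 0.27 for CFZ_EA against CFZ (adjusted p = 0.9997, edgeR). It was highest in CFZ_EA replicate 2, at 3.30 FPKM, and lowest in the CFZ libraries, at 1.66 and 1.40 FPKM, as the atrial marker sum was. The part of atrial RNA in the Gnao1, Gnaq and Grk3 values was not tested. In the alpha-1 branch, 6 of 8 genes were tested, none with an unadjusted p under 0.05.

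Of the other cyclases, 3 of 7 were tested. Adcy7, which is known from blood cells, measured 1.68 and 3.75 FPKM in the control libraries, 1.26 and 1.28 FPKM in the CFZ libraries, and 1.67 and 2.29 FPKM in the CFZ_EA libraries. Control replicate 2, the library with the most macrophage marker RNA, was highest, and both CFZ libraries were lowest. The log2 fold change of CFZ against control was -1.01 ± 0.36 (adjusted p = 0.608, edgeR), and the part of macrophage RNA in it was not tested. Of the cAMP effectors and anchoring proteins, 11 of 14 were tested. Rapgef3, an exchange factor that cyclic AMP activates, was 0.41 ± 0.14 for CFZ against control on the log2 scale (adjusted p = 0.608, edgeR). The anchoring proteins Akap1 and Akap6 were 0.49 ± 0.20 and 0.34 ± 0.14 for CFZ_EA against control (adjusted p = 0.848 for both, edgeR). Popdc2, a cAMP-binding protein of the Popeye family, was 0.36 ± 0.12 for CFZ against control (adjusted p = 0.608, edgeR).

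All 11 genes listed as cardiac targets of protein kinase A were tested. Tnni3, cardiac troponin I, measured 2179 and 2396 FPKM in the control libraries, 2926 and 2970 FPKM in the CFZ libraries, and 2743 and 2679 FPKM in the CFZ_EA libraries. All 4 libraries of carfilzomib-treated mice lay above both control libraries. The log2 fold change of CFZ against control was 0.42 ± 0.16 (adjusted p = 0.621 in edgeR, 0.0132 in DESeq2). These are the same 4 libraries that had less erythroid marker RNA, and Tnni3 is itself 1 of the 8 cardiomyocyte markers. The medians of this list were 0.06, -0.01 and 0.06 over the 3 comparisons, and Hcn4, a pacemaker channel, was 0.49 ± 0.20 for CFZ_EA against CFZ (adjusted p = 0.9997, edgeR).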

How the data were processed

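Hearts were sequenced after oligo(dT) selection with a strand-marking kit in paired reads, per the labels' protocols. StringTie 1.3.4d, HISAT2 2.0.4, cutadapt 1.9 and the build GRCm38 appear in the submitters' processing notes, with no role for each. Neither annotation release nor strand setting of the counting is given in the sources used here. The authors deposited 1 FPKM column and 1 count column for each library, per the file headers. These deposited counts were treated as estimated counts, and each was rounded before testing. Of the counts from 1 to 20, 42.2% to 43.3% were multiples of 4, so a count may not be 1 read, and division by 4 was tried. All 26835 gene IDs matched GENCODE M21.

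The 10329 genes whose mean FPKM reached 1 were tested in edgeR 4.0.16 (quasi-likelihood, TMM factors 0.955 to 1.08) with 1 model for all 6 libraries, 3 residual degrees of freedom and Benjamini-Hochberg adjustment at 0.05. Intervals are at 95%. Level spread used TMM-scaled CPM, and likeness used log2 CPM with a prior count of 2. DESeq2 1.42.0, limma 3.58.1 on log2(FPKM + 1), R 4.3.3 and Python 3.11.15 were also used. Only the edgeR steps were tested on simulated counts. The members and the 11 pathway and 13 marker lists were chosen with earlier results of these data known. Named were all members, of each list the genes called and 2 with the smallest unadjusted p per comparison, and the 2 genes most like each member, leaving out Gm and Rik names. The text gives a part of the list genes and of the genes most like a member, some genes are not reported here, and Arrb1, Nr4a1, Th, Maob and Bmp10 were added after their values were seen. No 2 libraries were identical. Alternatives were other scalings, filters and tests, only the compared groups, the replicate number as a block, counts divided by 4, each library left out, and control replicate 2 with CFZ_EA replicate 2 left out.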

Additional observations from a re-analysis of the deposited data

How the results depend on the processing

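No member was called under any alternative, and 13 of the 27 log2 fold changes of members kept their sign in each alternative that could be fitted (for Adra1a only those without the FPKM filter). The number of genes called for CFZ against control was 138 by DESeq2, 0 with only the 2 compared groups, 1 with counts divided by 4, 31 with control replicate 2 and CFZ_EA replicate 2 both left out, and 0 to 338 with 1 library left out. For CFZ_EA against CFZ it was 55 by DESeq2, 1 with counts divided by 4, 11 with both left out, and 0 to 4 with 1 left out. For CFZ_EA against control it was 51 by DESeq2, 1 with both left out, and 0 to 238 with 1 left out. The cause was not tested.

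Members' log2 fold changes turned sign as follows. With both left out, Adcy5 (0.0131) and Gnai2 (0.14) turned for CFZ against control, Chrm2 (-0.0139) and Gnas (-0.00485) for CFZ_EA against CFZ, and Chrm2 (-0.38) and Grk2 (0.0466) for CFZ_EA against control. Gnas gave 0.035 without a filter and 0.033 with filterByExpr for CFZ against control, -0.011 and -0.010 for CFZ_EA against CFZ, and 0.024 and 0.023 for CFZ_EA against control, where RLE scaling and DESeq2 gave 0.0013 each.

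With 1 library left out, so that the lone sample of its group is assumed to vary like the others, the ranges that crossed 0 for CFZ against control were -0.0721 to 0.436 for Adrb1, -0.37 to 0.28 for Chrm2, -0.151 to 0.0416 for Adcy5, -0.0627 to 0.0334 for Gnas, -0.27 to 0.14 for Gnai2 and -0.0091 to 0.18 for Grk2. For CFZ_EA against CFZ they were -0.10 to 0.40 for Adrb1, -0.47 to 0.51 for Adra1b, -0.0164 to 0.399 for Chrm2 and -0.0364 to 0.062 for Gnas. For CFZ_EA against control they were -0.10 to 0.87 for Adra1b, -0.16 to 0.48 for Chrm2 and -0.0503 to 0.0495 for Gnas.

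Over all genes tested, replicate numbers showed little sign of pairing: deviations of same-numbered libraries correlated at -0.07, -0.05 and 0.08 between the 3 pairs of groups. Such a correlation does not address single genes, and Kcnj5 was higher in replicate 1 of every group. The replicate block gave 2, 2 and 0 genes called, against 3, 2 and 0 without it, and changed no call of a member. Under the block Adcy6 for CFZ against control had an unadjusted p of 0.0497 (adjusted p = 0.628, edgeR). With 2 libraries a group, intervals of the 8 tested members run from 0.582 to 2.54 in fold, with the widest for Adra1b.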

Other observations

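The genes that make, take up or break down the transmitters were mostly faint. Of the 15 listed, 13 were in the table and 5 passed the filter. Th, the rate-limiting enzyme of noradrenaline synthesis, was listed at 0 in 5 libraries and at 0.025 FPKM in control replicate 1. Dbh, the enzyme of the last step from dopamine to noradrenaline, measured 1.76 and 1.29 FPKM in the control libraries, 2.20 and 1.20 FPKM in the CFZ libraries, and 3.17 and 2.14 FPKM in the CFZ_EA libraries. Dbh was thus present in all 6 libraries where Th was near 0, and its highest library was CFZ_EA replicate 1. Its log2 fold change for CFZ_EA against control was 0.85 ± 0.37 (adjusted p = 0.848, edgeR). Maob, which breaks down monoamines, measured 10.99 to 13.6 FPKM.

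Genes known to respond to cyclic AMP did not move as 1 group. Of 10 listed, 6 were tested and none was called by edgeR, DESeq2 or limma. Per1, a clock gene with cAMP response elements, measured 1.71 and 3.39 FPKM in the control libraries, 4.17 and 3.04 FPKM in the CFZ libraries, and 4.97 and 3.33 FPKM in the CFZ_EA libraries. Control replicate 1 was the lowest. In FPKM control overlapped both other groups, but in TMM-scaled CPM both CFZ and both CFZ_EA libraries lay above both control libraries. The log2 fold changes of Per1 against control were 0.57 ± 0.33 for CFZ and 0.78 ± 0.33 for CFZ_EA (adjusted p = 0.7 and 0.848, edgeR). Fos, an early response gene, was 3.83 FPKM in control replicate 2 and 0.433 to 0.837 FPKM in the other 5 libraries. Nr4a1, another early response gene, was likewise highest in control replicate 2, at 3.94 FPKM against 1.27 to 2.06 FPKM elsewhere.

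Arrb1, the arrestin that binds phosphorylated beta receptors, varied most of the tested pathway genes, with a highest CPM 11.3 times its lowest. It measured 3.05 and 1.09 FPKM in the control libraries, 3.07 and 0.290 FPKM in the CFZ libraries, and 2.46 and 3.43 FPKM in the CFZ_EA libraries. Within CFZ its libraries therefore differed by a larger ratio than any 2 libraries of Adra1b, the most variable of the 9 genes. Arrb1 was chosen here after its values were seen.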
